A study of Mus musculus with 4 samples.

Results

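Cyp2b9, Cyp2b10 and Cyp2b13 are cytochrome P450 genes that lie side by side on mouse chromosome 7, close to Lipe, the gene of hormone-sensitive lipase (HSL) deleted in the mice studied. All probe sets annotated to them on the Affymetrix MG_U74Av2 array were taken, which gave 3 of 12422 non-control probe sets, for 3 of 8251 named genes: 101862_at for Cyp2b9, 102701_at for Cyp2b10 and 102820_at for Cyp2b13. Each gene had 1 probe set, and 0 probe sets were annotated to several of these genes. The genes were chosen by their measured signals in this same study, because Cyp2b9 and Cyp2b13 were very low in the HSL-null pools, so the values below are a description and were not tested.

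The livers came from female mice killed in the fed state at 8 months of age. The groups were wild type on a normal diet (ND, 11% of energy from fat), wild type on a high-fat diet (FD, 58%), HSL-null on ND and HSL-null on FD, each diet being given for 6 months. The HSL-null mice carried a general knockout, and the sources used here give the strain of neither genotype. Each group was 1 pool of livers, 6 in all groups but HSL-null on FD with 4, and each pool was read on 1 array, so nothing measured the spread between animals or repeats, and higher and lower describe these 4 pools.

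Cytochrome P450 enzymes of the 2b subfamily sit in the endoplasmic reticulum and hydroxylate drugs and steroids with electrons from P450 oxidoreductase. Cyp2b10 is the classic mouse gene induced by phenobarbital through the nuclear receptor CAR. Cyp2b9 and Cyp2b13 are expressed more in female than in male mouse liver, a sex difference set largely by the pattern of growth hormone secretion.

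The 250 bases before the gene starts are shown because they tell how alike the regions upstream of the 3 genes are. The sequences are those of RefSeq on the build GRCm38.p6, all on the plus strand, at chr7:26173159-26173408 for Cyp2b9, chr7:26061245-26061494 for Cyp2b13 and chr7:25897408-25897657 for Cyp2b10. Capitals in the Cyp2b9 and Cyp2b13 sequences mark the bases that differ between these 2 genes, and capitals in the Cyp2b10 sequence mark the bases not matched in its alignment to Cyp2b9.
Cyp2b9: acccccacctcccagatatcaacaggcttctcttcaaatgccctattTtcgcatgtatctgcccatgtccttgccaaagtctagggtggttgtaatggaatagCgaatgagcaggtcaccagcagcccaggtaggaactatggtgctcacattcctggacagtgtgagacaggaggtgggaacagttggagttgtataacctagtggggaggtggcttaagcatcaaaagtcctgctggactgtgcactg
Cyp2b13: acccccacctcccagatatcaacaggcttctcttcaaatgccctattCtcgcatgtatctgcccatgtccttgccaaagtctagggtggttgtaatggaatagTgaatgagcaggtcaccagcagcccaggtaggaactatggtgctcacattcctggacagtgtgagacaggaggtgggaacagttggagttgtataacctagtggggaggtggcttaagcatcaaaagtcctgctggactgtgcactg
Cyp2b10: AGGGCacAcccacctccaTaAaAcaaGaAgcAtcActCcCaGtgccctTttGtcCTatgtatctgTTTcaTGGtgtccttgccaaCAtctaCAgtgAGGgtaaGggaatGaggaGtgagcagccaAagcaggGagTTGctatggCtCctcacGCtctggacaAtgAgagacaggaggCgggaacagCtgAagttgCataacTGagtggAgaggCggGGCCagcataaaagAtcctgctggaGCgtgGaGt
The Cyp2b9 and Cyp2b13 windows differed at 2 of 250 bases, T48C and C104T, with the Cyp2b9 base first and positions counted from 1 at the 5′ end of the window. That is an identity of 99.2%. A window of another gene on the same chromosome with 2 or fewer differing bases was found for 2.04% of the 32851 promoters in the table. Cyp2b10 was 71.0% identical to either of them over 262 aligned columns, with 52 substitutions and 24 gap columns, and 64 of its bases are in capitals.

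A search of both strands for AGGTCA, the hexamer bound by many nuclear receptors, found 1 match in the Cyp2b9 window and 1 in the Cyp2b13 window, each starting at base -138 from the gene start on the plus strand, and 0 in the Cyp2b10 window. The hexamer was present in 14.0% of all promoters of this length. The STAT5-type motif TTCNNNGAA (7.02% of promoters), the C/EBP palindrome TTGCGCAA (0.164%), the FOXA-type motifs TGTTTAC (3.17%) and TGTTTGC (4.30%) and the TATA box TATAAA (12.4%) had 0 matches in these 3 windows, so no match overlapped AGGTCA. The phenobarbital-responsive enhancer of Cyp2b10, through which CAR acts, lies further upstream than this window. The sequences of the array's probes were not used here, so whether the Cyp2b9 and Cyp2b13 probe sets also read each other's transcript, or those of the pseudogenes Cyp2b26-ps, Cyp2b27-ps and Cyp2b28-ps that lie among these genes, was not tested.

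The 4 arrays had been scaled alike, with median signals of 25.2 to 28.3, and 24.1 to 26.0% of probe sets on each at or under a signal of 6.1. This value, the 25th percentile of all signals, served as a floor: lower signals were raised to it before ratios were taken, and a ratio against a signal at the floor is given as at least N-fold. Such a bound holds for this floor only, which is not a measured limit of detection, and a higher floor gives a smaller N. Genes were kept where the mean signal over the arrays was at least 26.9, which left 4829 genes, all 3 Cyp2b genes among them. Cyp2b13 passed this filter only through its wild-type signals, as both of its HSL-null signals lay under the floor. A gene counted as different at 2-fold or more, a log2 ratio of 1 in size. The disagreement between 2 probe sets of a gene gave an SD of 0.298 for a log2 ratio, over 687 genes. It pools kept genes of all signal levels and was not estimated apart for genes with signals near the filter, such as Cyp2b10. It also omits error that all probe sets on an array share, and for the Cyp2b genes no second probe set was there to compare. Lipe itself read 28.0 and 34.0 on the wild-type ND and FD arrays but 11.9 and 15.9 on the HSL-null ones, and it did not pass the filter. The sources used here do not place its probes against the deletion, so this is only a partial check of the genotype labels. The run settings name a different lot of the SAPE solution for each genotype, and a lot difference cannot be told apart from one of genotype. Hepatocyte markers, 8 of 8 kept, had summed signals of 22910 to 31274, whereas the 3 kidney and 4 adipocyte markers held no kept gene.

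Both female-type genes were lower in the HSL-null pools, by far more than 2-fold on either diet. In wild type, the Cyp2b9 signal was 1045.7 on ND and 1632.5 on FD, whereas the HSL-null pools had 165.7 on ND and 2.1 on FD. Both wild-type pools were thus high, HSL-null on ND was intermediate, and HSL-null on FD was under the floor. HSL-null liver had 6.31-fold less Cyp2b9 signal than wild type on ND, a log2 ratio of -2.66. On FD it had at least 268-fold less, a log2 ratio of -8.06 with the floor as the lower signal. With the floor at the median of all signals, the FD log2 ratio was -5.93. In whole liver, fewer cells that express a gene and less RNA in each of them cannot be told apart.

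For Cyp2b13 the wild-type signal was 129.1 (ND) and 610.0 (FD), and the HSL-null pools had 3.2 (ND) and 1.3 (FD). Here both HSL-null pools were under the floor, so that they have no order, and only the wild-type pools gave a measured level. Against wild type, HSL-null liver on ND was at least 21.2-fold lower (log2 ratio -4.40) and on FD at least 100-fold lower (log2 ratio -6.64). With the floor at the median of all signals, these log2 ratios were -2.27 on ND and -4.51 on FD.

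Cyp2b10, the CAR target, differed far less. Wild type read 44.5 (ND) and 58.0 (FD) in signal, and the HSL-null pools 28.4 (ND) and 21.6 (FD). Both HSL-null pools lay under both wild-type pools, and all 4 were above the floor. The log2 ratio of genotype was -0.65 on ND, 1.57-fold lower and short of 2-fold, and -1.43 on FD, 2.69-fold lower. With a pseudocount of 16 in place of the floor the FD ratio became -0.98, which no longer reached 2-fold. In size these ratios were 2.2 and 4.8 times the SD between probe sets, which pools kept genes of all signal levels.

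**Figure D1:**
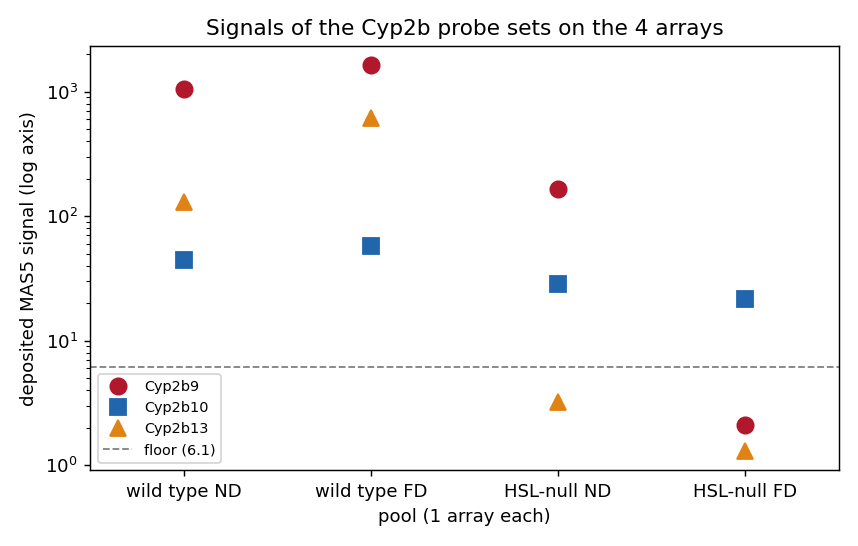
Deposited signal of each Cyp2b probe set (log axis) in the 4 pools, 1 array each, with the floor of 6.1 as a dashed line. Cyp2b9 falls from 1045.7 and 1632.5 in wild type to 165.7 and 2.1 in HSL-null liver, Cyp2b13 lies under the floor in both HSL-null pools, and Cyp2b10 stays between 21.6 and 58.0.

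On ND 1.08% of the 4829 kept genes were at least 2-fold lower without HSL, among them Cyp2b9 and Cyp2b13 but not Cyp2b10. On FD 0.953% were lower, and these included all 3 genes. On both diets together 0.124% were lower, which is 6 genes, Cyp2b9 and Cyp2b13 among them. As these contrasts led to the choice of the genes, nothing is read from those shares or from the places that follow. By place in the order, Cyp2b13 had the lowest ratio on ND, where 3 genes were lower than Cyp2b9 and 161 lower than Cyp2b10. On FD Cyp2b9 was the lowest gene, 1 gene was lower than Cyp2b13, and 18 were lower than Cyp2b10. The place of Cyp2b13 on ND rests on the floor, as its ratio is -2.27 with the floor at the median, where Cyp2b9 has -2.66. The order of Cyp2b9 and Cyp2b13 on FD is set by their wild-type signals, since both HSL-null signals lay under the floor. Of all genes called on ND, 52 were lower and 24 higher, against 36 and 30 under median scaling of the arrays. On FD 46 were lower and 90 higher, against 70 and 53, and median scaling moved the median of all genes by 0.13 on ND and -0.17 on FD.

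**Figure D2:**
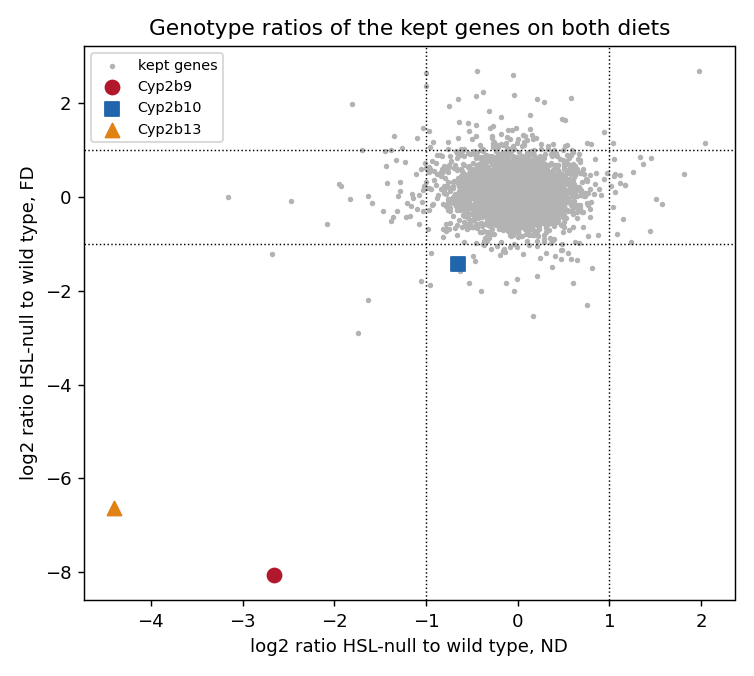
HSL-null over wild type as a log2 ratio, on ND (horizontal) and on FD (vertical) for the 4829 kept genes, with dotted lines at 2-fold. Cyp2b9 (-2.66, -8.06) and Cyp2b13 (-4.40, -6.64) lie apart from the other genes at the lower left, and Cyp2b10 (-0.65, -1.43) lies at the edge of the main cloud.

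The high-fat diet went with opposite differences in the 2 genotypes for Cyp2b9. Its signal on FD was 1.56-fold that on ND in wild type, a log2 ratio of 0.64, which is short of 2-fold. In HSL-null liver it was at least 27.2-fold lower on FD, a log2 ratio of -4.76. For Cyp2b13 the wild-type pool on FD had 4.73-fold the signal on ND, a log2 ratio of 2.24. The 1 kept gene with a higher ratio was Sult3a1 (2.31), a female-biased sulfotransferase gene. Of 11 kept female-biased genes other than Cyp2b9 and Cyp2b13, 2 were 2-fold higher, Sult3a1 and Hao2 (1.41). That is 18.2% against 0.787% of all kept genes, but the median of the 11 was 0.04, and 4 were below 0. In HSL-null liver Cyp2b13 was under the floor on both diets, so it had no diet ratio. Cyp2b10 had log2 ratios of 0.38 in wild type and -0.39 in HSL-null liver, each 1.3 times the SD between probe sets.

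Of the kept genes, 0.787% were 2-fold or more higher on FD in wild type, and Cyp2b13 alone of the 3 genes was among them. In HSL-null liver 0.621% were lower on FD, and Cyp2b9 alone was among them. Under median scaling 60 genes were higher and 76 lower on FD in wild type, in place of 38 and 114, and 23 and 46 in HSL-null liver in place of 40 and 30. The difference between the genotype ratios, FD minus ND, was -5.41 for Cyp2b9, -0.78 for Cyp2b10 and -2.24 for Cyp2b13, on the log2 scale. A difference of -1 or lower was found in 1.39% of kept genes, Cyp2b9 and Cyp2b13 included. Cyp2b10 crossed that limit under all 3 other scalings, with values from -1.07 to -1.04. The value of Cyp2b13 equals its wild-type diet ratio with the sign turned, because both HSL-null signals stood at the floor. Each pool enters 1 genotype ratio and 1 diet ratio, so these ratios are not independent of each other.

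The exocrine pancreas markers were high on the wild-type ND array, which enters both the ND genotype ratios and the wild-type diet ratios given above. Their summed signal over 6 kept genes was 828.4 there and 270.5 to 326.1 on the other 3 arrays. On ND 5 of the 6 were at least 2-fold lower without HSL, which is 83.3% against 1.08% of all kept genes. The part of these markers in the Cyp2b values was not tested.

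The 3 genes lie in the order Cyp2b10, Cyp2b13, Cyp2b9 on chromosome 7, with 15 coding genes between Lipe and Cyp2b10. Of the 32 other coding genes from Lipe to Rab4b, 8 were kept, and 0 of these differed 2-fold between genotypes on either diet. Of all kept genes, 0.497% were higher and 1.08% lower on ND, and 1.86% higher and 0.953% lower on FD. Lipe, itself among the 32, was not kept and had log2 ratios of -1.23 and -1.10. The 8 kept genes had a median log2 ratio of 0.04 on ND, within a range of -0.28 to 0.65. On FD their median was -0.03, within -0.19 to 0.23. The medians over all kept genes were -0.018 and 0.067. On the side towards Lipe, the nearest kept genes were Exosc5, which encodes a subunit of the RNA exosome (0.04 and -0.16 on ND and FD), and Bckdha, a subunit of branched-chain keto acid dehydrogenase (0.19 and -0.07). On the other side, the nearest were 2 further P450 genes, Cyp2a12 (0.13 and 0.02) and Cyp2f2 (0.65 and -0.17). Egln2, an oxygen-sensing hydroxylase gene, had 0.02 and -0.19.

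Cyp2b19, a Cyp2b gene known from skin, was under the floor on all 4 arrays, with signals of 3.8 to 5.5, and gave no ratio. Cyp2s1, the coding gene next to Cyp2b10, had signals of 4.4 to 8.5 and did not pass the filter. For Cyp2a4, Cyp2a5, Cyp2b23 and Cyp2g1, members of the same gene cluster, no probe set was named, and they were not analysed here. On ND the kept neighbours and Cyp2b10 all lay within 2-fold of wild type, and the ratio of Cyp2f2 equalled that of Cyp2b10 in size with the opposite sign. Cyp2b9 and Cyp2b13 were the kept genes of this stretch beyond 2-fold on both diets.

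**Figure D3:**
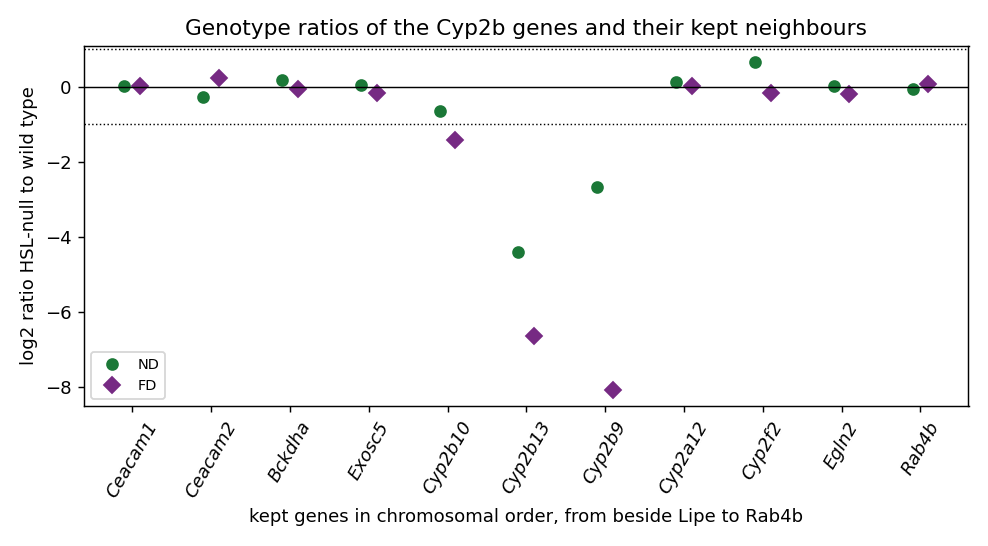
HSL-null over wild type as a log2 ratio, on ND (circles) and FD (diamonds) for the kept genes in chromosomal order, with dotted lines at 2-fold. Values for the 8 kept neighbours lie between -0.28 and 0.65, and those of Cyp2b10, Cyp2b13 and Cyp2b9 lie between -0.65 and -8.06.

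The kept regulators through which Cyp2b genes are known to be controlled mostly lay within 2-fold of wild type, as did most kept genes. Their part in the Cyp2b values was not tested. Nr1i3, which encodes CAR, had 3 kept probe sets with log2 ratios of -0.30, -0.20 and -0.24 on ND and of -0.10, -0.05 and -0.21 on FD, all short of 2-fold. Its brightest probe set read 535.3 (ND) and 631.8 (FD) in wild-type liver, against 435.2 and 591.4 without HSL. Nr1i2, which encodes the related receptor PXR, had 0.31 and 0.62. Stat5b, which carries the growth hormone signal, had -0.12 and 0.09 at signals of 32.2 to 36.2. Cish, a feedback inhibitor that STAT5 induces, was lower in HSL-null liver on both diets but under 2-fold, with -0.78 and -0.58.

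Over the 24 kept genes on the list of regulators and partners, 0 were 2-fold different on ND and 1 was higher on FD, which is 4.17% against 1.86% of all kept genes, with medians of -0.18 and 0.08. That gene was Nr0b2, which encodes the corepressor SHP, at 0.06 on ND and 1.18 on FD. Egfr, the epidermal growth factor receptor gene, had 0.60 and 0.95, and Hsp90aa1, a chaperone of the complex that holds CAR in the cytoplasm, had -0.74 and -0.55.

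CAR and PXR target genes other than Cyp2b10 were mostly within 2-fold of wild type. Of 24 kept genes, 0 were 2-fold different on ND and 1 was lower on FD, which is 4.17% against 0.953% of all kept genes, with medians of 0.05 and -0.18. Gsta4, a glutathione transferase gene, was that 1 gene, with 0.47 on ND but -1.33 on FD. Gsta2, another glutathione transferase gene, had -0.31 and -0.87, the P450 gene Cyp2c29 0.44 and -0.46, and the stress gene Gadd45b -0.63 and 0.89.

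No kept female-biased liver gene other than Cyp2b9 and Cyp2b13 was 2-fold lower on both diets, against 0.124% of all kept genes. At so small a share nothing is read from this. Of 11 kept, 1 was 2-fold higher on ND, which is 9.09% against 0.497% of all kept genes, and 0 were lower. On FD 0 were higher and 2 were lower, which is 18.2% against 0.953%, and the medians were 0.20 on ND and -0.15 on FD. The difference of genotype ratios, FD minus ND, was -1 or lower in 3 of the 11, or 27.3% against 1.39%: Sult3a1 (-2.18), Cyp2c39 (-1.96) and Cyp17a1 (-1.27), as it was in Cyp2b9 and Cyp2b13. Sult3a1, a sulfotransferase gene, had 1.44 on ND and -0.73 on FD. Cyp2c39 had -0.04 and -2.01, and Cyp17a1, the steroid 17-hydroxylase gene, 0.05 and -1.21. Hao2, a hydroxyacid oxidase gene, had 0.43 and -0.38. In signal, Cyp2c39 was 494.3 in HSL-null liver on FD against 1912.5 to 1985.1 in the other 3 pools, so it was low in the pool where Cyp2b9 was lowest but not in HSL-null liver on ND.

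**Figure D4:**
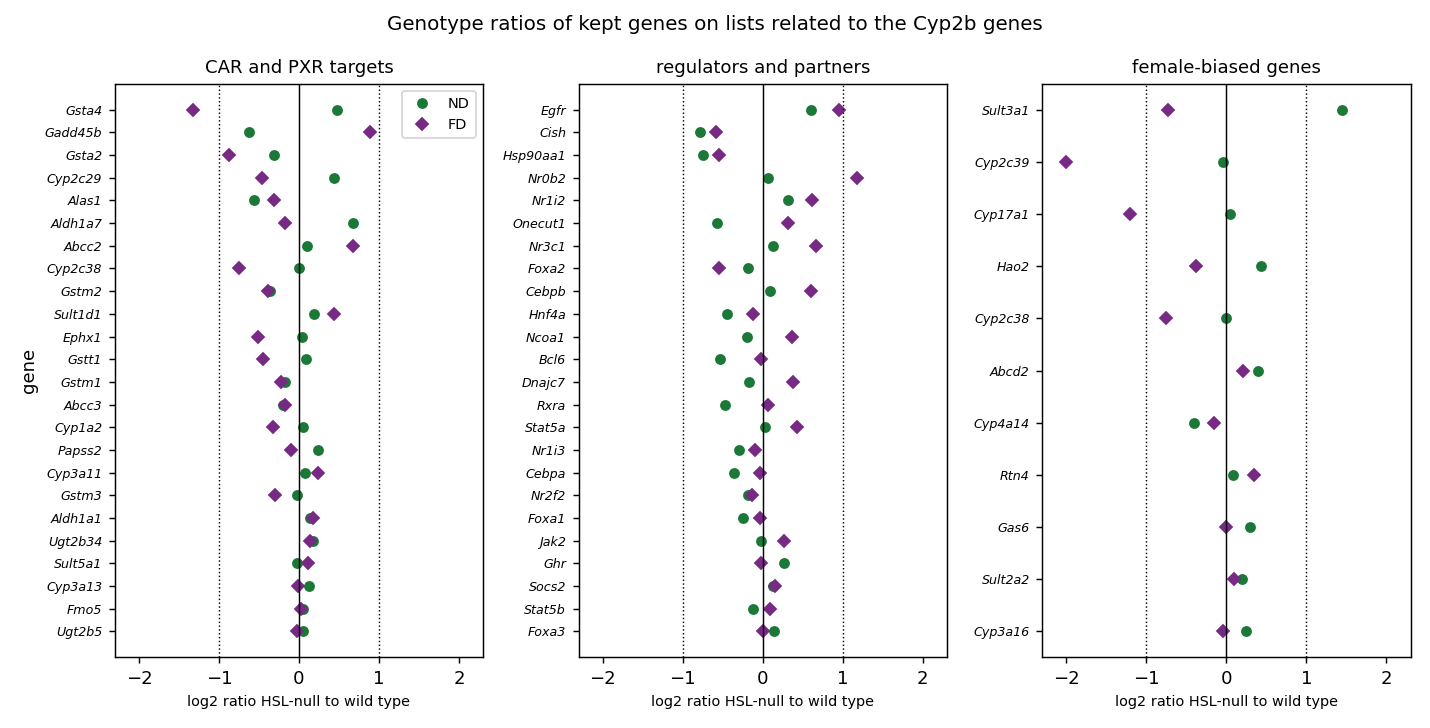
HSL-null over wild type as a log2 ratio, on ND (circles) and FD (diamonds) for the kept genes of 3 lists, with dotted lines at 2-fold. Among 24 CAR and PXR targets, 24 regulators and partners and 11 female-biased genes, none is 2-fold lower on both diets. Of all kept genes, 0.124% are.

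Genes whose pattern was most like that of each Cyp2b gene were ranked by Pearson correlation of floored log2 signal over the 4 arrays, among 332 kept genes that spanned at least 2-fold. For Cyp2b9 these were Thrsp (r = 0.9989), Mknk2 (0.9984) and Tef (0.9969), for Cyp2b10 Ccl5 (0.9977), Dbp (0.9902) and Usp2 (0.9857), and for Cyp2b13 Hspa1b (0.9984), Usp2 (0.9961) and Dbp (0.9927). A correlation over 4 arrays is imprecise. Of the 332 genes, 9, 12 and 6 reached 0.95 with Cyp2b9, Cyp2b10 and Cyp2b13, and the counts for Cyp2b10 and Cyp2b13 each include the other gene. The Cyp2b genes themselves correlated at 0.8316 (Cyp2b9 and Cyp2b13), 0.9421 (Cyp2b9 and Cyp2b10) and 0.9674 (Cyp2b10 and Cyp2b13). These values rest in part on signals set to the floor, in both HSL-null pools for Cyp2b13 and on FD for Cyp2b9, so they give no order of likeness. The size of the differences was not matched: Thrsp had genotype log2 ratios of -0.48 and -1.26 where Cyp2b9 had -2.66 and -8.06. All of these values share the same 4 arrays and describe them only.

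The genotype ratios of the Cyp2b genes were below 0 under the 5 other settings tried, on both diets. On ND the Cyp2b9 ratio stayed between -2.68 and -2.53, since both of its signals were well above any floor. The size for Cyp2b13 depends on the floor, because it is a bound, and was -2.27 on ND and -4.51 on FD with the floor at the median of all signals.

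**Figure D5:**
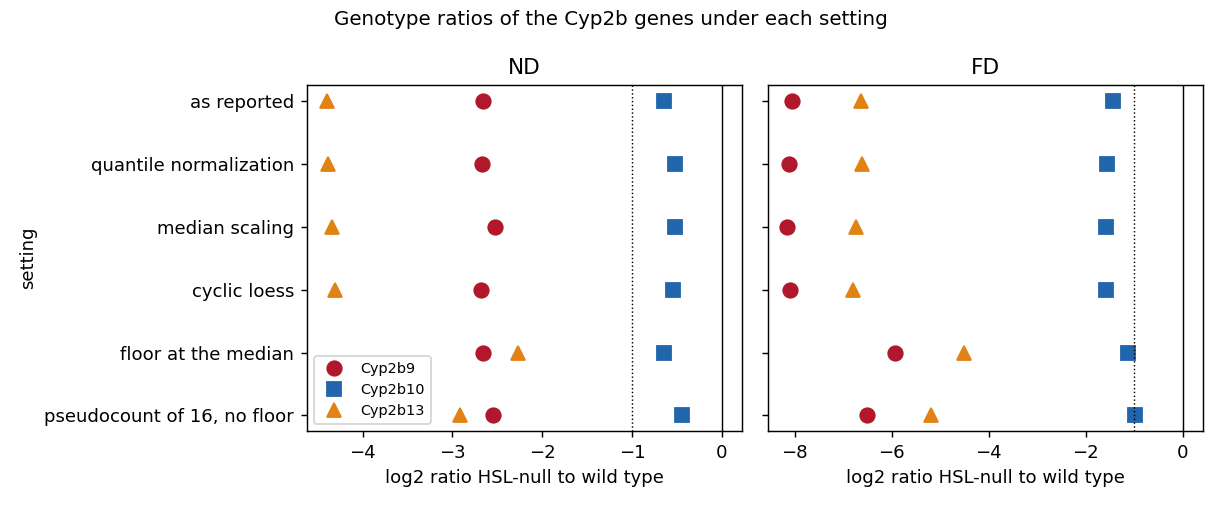
HSL-null over wild type as a log2 ratio, for the 3 Cyp2b genes on ND (left) and FD (right) as reported and under 5 other settings, with a dotted line at 2-fold lower. The scalings leave the points nearly in place, while the higher floor and the pseudocount move Cyp2b13 on both diets and Cyp2b9 on FD towards 0, to no higher than -2.27. Cyp2b10 on FD also moves towards 0, to -1.12 with the higher floor and to -0.98, short of 2-fold, with the pseudocount.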

How the data were processed

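Biotin-labelled RNA of 4 liver pools was hybridised to 1 Affymetrix MG_U74Av2 array each. The deposited table holds 1 linear intensity per probe set and array, and the submitters' processing notes name MAS5, with no version in the sources used here. Trimmed by 2%, the mean signal was 100.085 to 100.094 on the 4 arrays, so the authors had scaled the intensity values to a common mean. Run settings came from the files' headers, and detection calls were not used here. Of 12488 probe sets, 66 controls were left out. The platform annotation gave 1 gene to 10833 of the others, several to 396 and none to 1193, and 10817 of the 10833 matched a RefSeq gene table of GRCm38.p6, used for names and gene order.

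Signals were raised to the floor of 6.1, the 25th percentile, and taken to log2. Each gene was represented by its brightest kept probe set. Nothing was tested, since each group had 1 array, and their number limits the precision. Alternatives were quantile normalization, median scaling, cyclic loess (limma 3.58.1), a floor at the median, a pseudocount of 16 without a floor and, for counts of genes, other filters and summaries. Ratios were computed in Python 3.11.15 (numpy 2.4.6, pandas 2.3.3), and the functions were tested on simulated data. Upstream windows were aligned globally with biopython 1.88 (match 1, mismatch -1, gap opening -2, gap extension -0.5). Named genes were the Cyp2b genes and Lipe, for each Cyp2b gene the 3 genes most like it, the 4 members of each list with the largest mean size of the genotype ratios plus Nr1i3, Nr1i2, Por and Stat5b, and the kept Cyp2 genes of the cluster. No probe set was named for Por. The genes and lists were chosen with earlier results of these data known.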

Additional observations from a re-analysis of the deposited data

Results flagged for a closer look

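Cyp2b9 and Cyp2b10 had diet differences of opposite direction in the 2 genotypes. For Cyp2b9 the log2 ratio of FD to ND was 0.64 in wild type, short of 2-fold, and -4.76 in HSL-null liver. The difference was -5.41, in which the HSL-null FD signal is at the floor. For Cyp2b10 the ratios were 0.38 and -0.39, a difference of -0.78. In size each of these ratios was only 1.3 times the SD between probe sets. With the floor at the median the HSL-null one was -0.09. With 1 array per group neither difference was tested.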

How the results depend on the processing

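No paired analysis was possible because each group had 1 array. Of 75 values of the Cyp2b ratios under 5 alternatives, 61 moved by less than the SD of 0.298 between probe sets, 14 moved by more and 0 reversed. With the floor at the median, 26.7, Cyp2b9 had -5.93 for genotype on FD, -2.63 for diet in HSL-null liver and -3.28 for the difference of genotype ratios. Cyp2b10 then had -1.12, -0.09 and -0.47, and Cyp2b13 had genotype ratios of -2.27 on ND and -4.51 on FD. With the pseudocount of 16 the same Cyp2b9 values were -6.51, -3.33 and -3.96, Cyp2b10 had -0.98 for genotype on FD, and Cyp2b13 had -2.92 on ND and -5.18 on FD. These moves follow from the construction of both alternatives, which raise low signals. Counts of genes 2-fold different moved more, and 39 of 90 values were over 1.5 times from the main count. Over 9 alternatives the lower genes numbered 7 to 218 on ND (52 as reported), 24 to 142 on FD (46) and 4 to 16 on both diets (6). The genes higher on FD in wild type numbered 19 to 144 (38), and the genes lower on FD in HSL-null liver 18 to 103 (30). The highest of each of these counts came with no filter, and the lowest with a stricter filter at a mean signal of 97.1, tied with the pseudocount for both diets together. Signals under the floor give bounds only, which limits the size of the Cyp2b9 ratio on FD and of both Cyp2b13 ratios.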

Other observations

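Of 28 kept P450 genes outside the Cyp2b group, 0 were 2-fold different on ND and 3 were lower on FD, which is 10.7% against 0.953% of all kept genes, with medians of 0.08 and -0.05 against -0.018 and 0.067. The 3, named after their values were seen, were Cyp2c39, Cyp17a1 and Cyp51, the last being a gene of cholesterol synthesis at 0.80 on ND but -1.52 on FD on the log2 scale. Partners of microsomal P450 enzymes, genes of heme synthesis and breakdown included, had 0 of 7 kept genes 2-fold different on either diet. Their medians were -0.02 and -0.31. Of all kept genes, 0.497% were higher and 1.08% lower on ND, and 1.86% higher and 0.953% lower on FD. Alas1, the first enzyme of heme synthesis, had -0.56 and -0.31, the heme synthesis gene Alad -0.02 and -0.58, the cytochrome b5 reductase gene Cyb5r3 0.36 and -0.39, and Hmox1, which encodes a heme-degrading enzyme, -0.62 and 0.10.

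Male-biased liver genes had 0 of 11 kept genes 2-fold different between genotypes on either diet, with medians of 0.08 and 0.14. Of all kept genes, 0.497% were higher and 1.08% lower on ND, and 1.86% higher and 0.953% lower on FD. The medians of all kept genes were -0.018 and 0.067. Among the 11, the largest ratios after Egfr and Cish were those of Serpina12 (0.76 and 0.35) and Cyp2f2 (0.65 and -0.17). Cyp7b1, an oxysterol hydroxylase gene named after its values were seen, had 0.38 and -0.04. Pericentral hepatocyte markers, from the zone where Cyp2b10 is mostly expressed, had a median of 0.01 (ND) and 0.17 (FD) over 7 kept genes, with summed signals of 10348 to 12782 over the 4 arrays, and periportal markers had 0.08 and 0.22 over 6. Summed signals over the 4 arrays were 970.5 to 1416.9 for 4 Kupffer cell markers, 34.3 to 86.1 for 2 lymphocyte markers and 2446 to 3081 for 4 red cell markers.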
